A study of Sus scrofa with 48 samples.

Results

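The variation of miRNAs among the 12 small RNA libraries of the L group was described, with no comparison of the L group with the H group. The 12 libraries are among the 24 small RNA libraries and 48 libraries of the series. Each comes from seminal plasma extracellular vesicles (SPEVs) of 1 boar with low sperm motility, of the Yorkshire breed by the labels and named large white in the study's methods. Ages ran from 14 to 36 months, and the mean total sperm motility of the group was 0.4 as a fraction. The study lists age and motility for each boar, and motility differed widely within the group. The labels do not match these values to single libraries. The labels give no treatment or genotype, and no batch. The libraries were taken by their labels and are called L1 to L12 after the numbers in them. SPEVs were collected by ultracentrifugation and passed through a 220 nm filter, so the libraries represent vesicles rather than sperm.

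A mature miRNA is a short RNA cut from 1 arm of a hairpin precursor, and it lowers the output of mRNAs that pair with its seed, the bases 2 to 8 from its 5′ end. Members of a family share a seed, and hairpins that lie close together in the genome are often cut from 1 transcript. Seminal plasma vesicles are released by the epithelia of the epididymis and the accessory glands, with smaller parts from the testis and from blood cells that reach the semen. The let-7 family is among the most abundant miRNAs of many body fluids, and the miR-200 family marks epithelia.

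The table listed 345 mature miRNAs, of which 338 had a read in at least 1 L library, 234 had reads in each of the 12 libraries and 20 had reads in 1 library. The level is given in CPM, the reads of a miRNA divided by all miRNA reads of that library and scaled so that a library sums to 1e6. A mean of at least 10 CPM over the 12 libraries was reached by 197 miRNAs, and the spread was described for these. The limit on the mean fell between miR-215 at 9.99 CPM and miR-194a-5p at 10.02 CPM. Of the 197 miRNAs, 196 had reads in each library, and the exception was miR-223. CPM is a share, so a miRNA that takes more of the reads lowers the CPM of the others, and more vesicles of a source cannot be told apart from more of the miRNA in each vesicle.

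The libraries held between 4650378 (L7) and 9842872 (L11) miRNA reads, with a median of 6485184. A count of 0 therefore allowed a level of up to 0.305 to 0.645 CPM, taken as 3 reads. The 10 most abundant miRNAs held between 63.5% (L6) and 77.8% (L10) of the reads. The Pearson correlation of log2 levels over miRNAs between 2 libraries had a median of 0.961. L8 and L12 stood apart. The median correlation of L12 with the others was 0.898 and that of L8 was 0.928, against 0.958 to 0.981 for the other 10 libraries. No 2 libraries had near-identical counts, since the lowest chi-square per degree of freedom over the 66 pairs was 111. Results that rest on L8 and L12 are given with and without them.

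The mature sequences that the results turn on are shown first, so that shared seeds and single-base differences can be seen. They are from the RefSeq annotation of Sscrofa11.1, which held a position for 156 of the 197 miRNAs, and the capitals mark the seed. The first set holds miRNAs known from white blood cells, which were the most variable. They do not share a seed, and 2 of them are the arms of the miR-142 hairpin.
miR-146a-5p: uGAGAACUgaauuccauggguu
miR-155-5p: uUAAUGCUaauugugauagggg
miR-142-3p: uGUAGUGUuuccuacuuuaugg
miR-142-5p: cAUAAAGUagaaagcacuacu
miR-146a-5p lies at chr16:63044307-63044328 on the minus strand, miR-155-5p at chr13:189138832-189138853 on the plus strand, and the arms of miR-142, 3p and then 5p, at chr12:34609389-34609410 and chr12:34609426-34609446 on the minus strand, each as the span of the mature sequence within a miRNA gene.

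The second set holds 3 of the most constant miRNAs, which share the seed of the let-7 family.
let-7a: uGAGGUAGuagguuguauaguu
let-7c: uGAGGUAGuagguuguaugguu
let-7e: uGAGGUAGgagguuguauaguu
The third set holds pairs that rose and fell together. The pair miR-23a and miR-23b shares a seed, and so does the pair miR-27a and miR-27b-3p, while miR-24-3p, miR-182 and miR-183 have seeds of their own.
miR-23a: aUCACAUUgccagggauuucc
miR-23b: aUCACAUUgccagggauuacca
miR-27a: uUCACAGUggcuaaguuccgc
miR-27b-3p: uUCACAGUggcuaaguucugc
miR-24-3p: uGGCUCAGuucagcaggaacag
miR-182: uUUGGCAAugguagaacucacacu
miR-183: uAUGGCACugguagaauucacug
The fourth set shows why some names are not independent measurements. The mature sequences of miR-10a-5p and miR-10b differ by 1 base, and those of miR-129a-5p and miR-129b are identical.
miR-10a-5p: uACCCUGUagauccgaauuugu
miR-10b: uACCCUGUagaaccgaauuugu
miR-129a-5p: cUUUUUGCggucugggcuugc
miR-129b: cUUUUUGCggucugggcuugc

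The names of the last set shared their counts. The counts of miR-10a-5p and miR-10b differed by at most 0.136% in a library, although the genes lie on chromosomes 12 and 15. The counts of miR-129a-5p and miR-129b were identical. Of all listed names, 19 pairs had counts that differed by under 5% in each library, 12 of them with identical counts, and 11 of the pairs were among the 197 miRNAs. Among these were miR-103 and miR-107, miR-29a-3p and miR-29c, miR-19a and miR-19b, and miR-100 and miR-99a-5p. The levels of such names are uncertain, since the reads of one can be counted on the other.

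The most variable miRNAs were those known from white blood cells. The coefficient of variation (CV, the SD over the mean of CPM) of the 197 miRNAs ranged from 0.0892 to 2.31, with quartiles of 0.332, 0.409 and 0.545. The CV expected from counting alone had a median of 0.0274 and was at most 0.127, and the measured CV was at least 2.97 times as large for each miRNA. The spread was therefore larger than expected from counting reads alone. That expectation is a lower limit, since whether molecular identifiers were collapsed is not known. Differences between boars and between preparations cannot be told apart. The CV was 1 or more for 10 miRNAs (5.08%) and 0.3 or less for 38 (19.3%). Just inside and outside the first limit were miR-24-3p at 1.01 and miR-205 at 0.994, and at the second miR-30a-5p at 0.296 and miR-874 at 0.302. The median CV was 0.472 for the 81 miRNAs at 10 to 100 CPM and 0.344 for the 47 miRNAs at 1000 CPM or more.

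**Figure D1:**
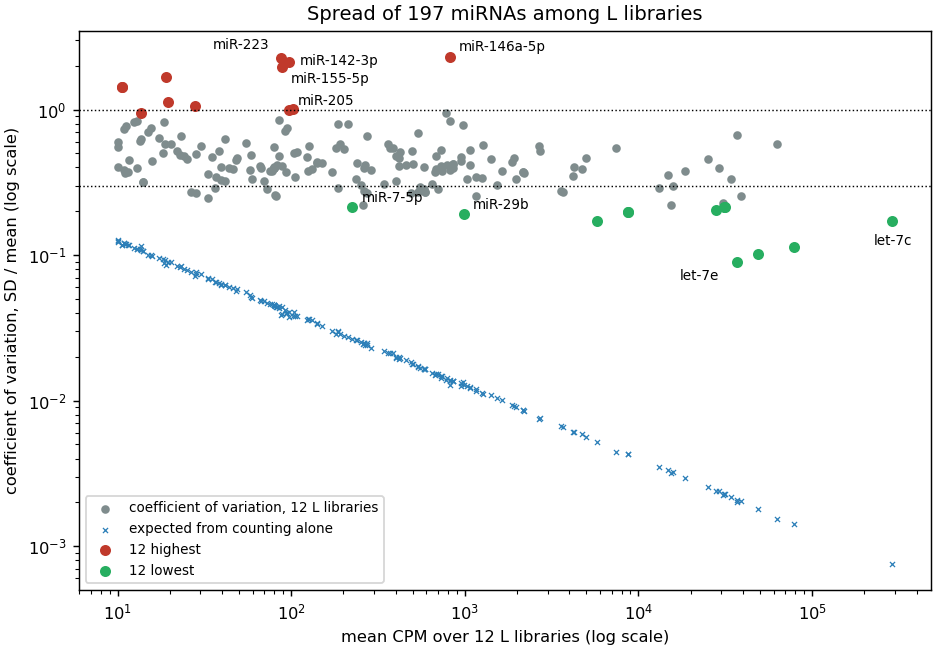
The CV of the 197 miRNAs (points) is plotted against their mean CPM over the 12 L libraries, both on log scales, with the CV expected from counting alone as crosses and dotted lines at a CV of 1 and 0.3. The measured points lie above the crosses at every level, with miR-146a-5p highest at 2.31 and let-7e lowest at 0.0892.

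miR-146a-5p, which restrains inflammatory signalling in immune and epithelial cells, had the highest CV. Its level was 3474 CPM in L8 and 5997 CPM in L12 and lay between 24.5 (L6) and 91.8 (L4) CPM in the other 10 libraries. The highest level was 146 times the median of the 12 libraries, which was 41 CPM, and the mean was 824 ± 1905 CPM (SD, n = 12). The fewest reads, in L7, were 123, and L12 held 42823. Without L8 and L12 the CV fell from 2.31 to 0.491.

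miR-155-5p, which is induced in activated immune cells, had 345 CPM in L8, 557 CPM in L12 and between 7.4 (L5) and 30.0 (L11) CPM in the others. miR-223, a miRNA of neutrophils and monocytes, had 629 CPM in L8, 348 CPM in L12 and at most 31.3 CPM (L3) elsewhere, and it was at 0 in L7, L9, L10 and L11. miR-142-3p, a miRNA of blood cell lineages, had 749 CPM in L8, 138 CPM in L12 and 14.9 (L11) to 43.6 (L1) CPM in the others. These 3 miRNAs had the same pair of high libraries as miR-146a-5p, with L12 above L8 for miR-146a-5p and miR-155-5p and L8 above L12 for miR-223 and miR-142-3p. miR-142-5p, the other arm of the miR-142 hairpin, had 91.7 CPM in L8, 81.8 CPM in L12 and at most 11.4 CPM (L3) in the others. The ratio of the arms was therefore not the same in L8 and L12.

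The summed level of the white blood cell list, 7 names in the table of which 5 had a mean of at least 10 CPM, lay between 78.5 (L7) and 157 (L4) CPM in the libraries other than L8 and L12, and it was 5310 CPM in L8 and 7151 CPM in L12. Of its names with low levels, miR-150 was also highest in L12, at 29.5 CPM, and in L8, at 21.3 CPM. The CV of miR-142-3p was 2.13, and 0.903 without L8 alone. The red blood cell list was near 0 in each library. miR-451 was at most 5.14 CPM (L1), miR-486 at most 4.73 CPM (L4), miR-144 had reads in L3 alone, and the sum of the 3 was at most 8.24 CPM (L3). How far white blood cells in the semen contributed to these levels was not tested.

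Some miRNAs reached a mean of 10 CPM through L8 and L12 alone, so that a high CV followed from the minimum. Without these libraries the mean was 7.15 CPM for miR-223, 5.52 CPM for miR-142-5p and 4.52 CPM for miR-129a-5p and miR-129b. Of the 10 miRNAs with a CV of 1 or more, miR-223 and miR-202-3p kept it without these libraries. The pair miR-129a-5p and miR-129b, which counts the same reads, had 51.8 CPM in L8, 30.1 CPM in L12 and 1.42 (L11) to 9.64 (L6) CPM elsewhere. miR-24-3p had 382 CPM in L8 and 240 CPM in L12 and lay between 34.9 (L9) and 98.3 (L5) CPM in the others, and its CV was 0.749 without L8 alone. miR-205, a miRNA of stratified and basal epithelium, was high in L8 alone, with 363 CPM against 16.9 (L10) to 154 (L2) CPM in the other 11 libraries.

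A different set of libraries was high for miR-202-3p and miR-542-3p. miR-202-3p, which is known from Sertoli and germ cells of the testis, had 69.6 CPM in L9, 46.0 CPM in L4, 32.5 CPM in L11, 32.1 CPM in L1 and 23.9 CPM in L10. It had 18.9 CPM in L8, 5.68 CPM in L3, 3.01 CPM in L7, 2.10 CPM in L12, 0.612 CPM in L6, 0.411 CPM in L5 and 0.327 CPM in L2, which is 2 reads. Its levels formed no pair of separate groups, and its CV of 1.13 was 1.11 without L8 and L12. The other arm, miR-202-5p, was also highest in L9, with 33.9 CPM, and at 0 in L5 and L7. miR-542-3p, of an X-linked cluster, had 87.5 CPM in L11, 79.3 CPM in L9 and 56.1 CPM in L10 and between 1.26 (L12) and 26.5 (L4) CPM in the others. It was therefore lowest in L12, in which miR-146a-5p was highest, and its CV of 1.06 was 0.984 without L12. miR-10386 was highest in L4, with 45.8 CPM, and lowest in L5, with 2.61 CPM.

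**Figure D2:**
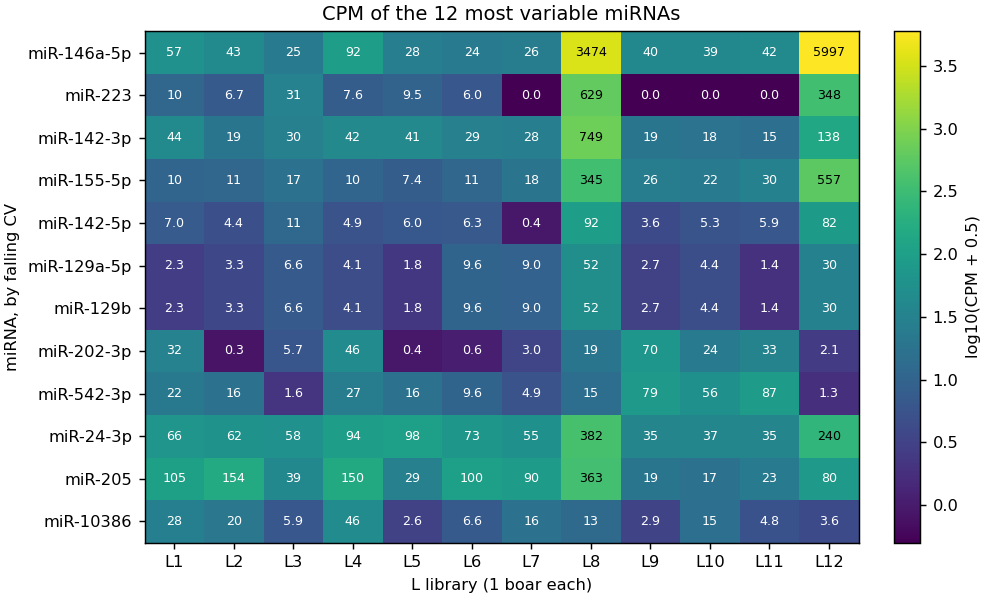
CPM of the 12 miRNAs with the highest CV (rows, by falling CV) in the 12 L libraries (columns, 1 boar each), with the colour as log10(CPM + 0.5). L8 and L12 are high in the rows of miR-146a-5p, miR-223, miR-142 and miR-155-5p, whereas L9, L10 and L11 are high in the row of miR-542-3p.

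The markers of other sources varied less or stood near 0. Of the miR-200 family, which keeps epithelial identity, 3 names were found, and their sum lay between 52997 (L12) and 131839 (L8) CPM. The most abundant of them, miR-200b, had 26187 CPM in L12, 28223 CPM in L10, 29210 CPM in L9, 32172 CPM in L11, 64058 CPM in L8 and between 39710 (L7) and 44474 (L4) CPM in the other 7 libraries. miR-34c, of ciliated and germ cells, had a lowest level of 7.28 CPM (L12) and a highest of 221 CPM (L4). miR-122-5p, the liver miRNA, lay between 18.6 (L12) and 254 (L10) CPM. miR-499-5p, listed for striated muscle, lay between 20.2 (L12) and 171 (L8) CPM, while miR-1 was at most 2.80 CPM (L12) and miR-206 at most 1.40 CPM (L10), so the defining muscle miRNAs were near 0. The 7 names of the list for smooth muscle and stroma summed to at most 14.2 CPM (L4), with miR-143-3p at most 1.83 CPM (L11). The copies miR-9, miR-9-1 and miR-9-2, which count the same reads, lay between 29.6 (L2) and 127 (L3) CPM, and miR-124a had reads in L8 alone at 0.121 CPM.

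Among the 10 most abundant miRNAs, the let-7 names and the miR-10 pair varied little, whereas miR-148a-3p and miR-21-5p did not. let-7c alone had a mean of 288237 CPM, followed by let-7a with 78415 CPM and miR-148a-3p with 62911 CPM. miR-148a-3p, a miRNA of secretory epithelia and milk, had 133277 CPM in L11, 122794 CPM in L9 and 108750 CPM in L10 and between 30111 (L12) and 55701 (L5) CPM in the other 9 libraries, with no level in between. miR-21-5p, which rises in inflamed and injured tissue, had 106005 CPM in L8 and 65008 CPM in L12 and between 19701 (L3) and 36268 (L1) CPM in the others. Its CV of 0.672 was 0.204 without L8 and L12.

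Members of the let-7 family, whose targets include growth and cell cycle genes, were the most constant by this scale. The CV was 0.0892 for let-7e, 0.101 for let-7f-5p, 0.113 for let-7a and 0.171 for let-7c. Without L10, the highest library of let-7e, its CV was 0.0523, and the CV of let-7i-5p was 0.132 without L8. let-7e lay between 33730 (L12) and 45924 (L10) CPM, with a mean of 37121 ± 3312 CPM (SD, n = 12). let-7a lay between 64766 (L8) and 95718 (L10) CPM. let-7c was lowest in L8, with 180028 CPM, and between 246798 (L6) and 363693 (L10) CPM in the others. Of the 10 let-7 names with a mean of at least 10 CPM, 8 had a CV of 0.3 or less, beside 19.3% of the 197 miRNAs. The rest of the 12 lowest were miR-151-3p, miR-29b, the pair miR-29c and miR-29a-3p, let-7i-5p, the pair miR-10a-5p and miR-10b, and miR-7-5p, with CVs of 0.173 to 0.214. Of the miR-29 family, which targets collagen mRNAs, 3 of 4 names had a CV of 0.3 or less, and miR-29b lay between 750 (L9) and 1348 (L8) CPM.

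The CVs of single let-7 names depended on the scale. With TMM factors, described next, 7 of the 10 names had a CV of 0.3 or less, beside 69 of the 197 miRNAs, with a median CV of 0.261 beside 0.367. The let-7 family held between 375485 (L8) and 593360 (L10) CPM, which are part of the total by which it is divided. When the libraries were scaled with TMM factors of edgeR, which balance the bulk of the miRNAs rather than the total, the CV of let-7e was 0.275, that of let-7a 0.308 and that of let-7c 0.358. The factors ranged from 0.715 (L9) to 1.36 (L8). With totals, the median log2 difference of the 197 miRNAs to their own mean over libraries ran from −0.51 (L12) to 0.52 (L8), and with TMM factors from −0.22 (L10) to 0.08 (L1). With TMM factors 69 miRNAs had a CV of 0.3 or less, of which 26 were among the 38 found with totals. Of the 12 lowest CVs, 1 name was shared by both scales, miR-29b, with 0.191 by totals and 0.112 by TMM factors. By TMM factors it was followed by miR-200b at 0.124 and miR-141 at 0.138, which had 0.257 and 0.332 by totals. The most variable miRNAs depended less on the scale, since 10 of the 12 highest were shared.

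The level of many miRNAs moved together across the 12 libraries, and how many did depended on the scale. Of 19306 pairs of the 197 miRNAs, 2290 (11.9%) had a positive and 251 (1.30%) a negative correlation of log2(CPM + 0.5) that passed a two-sided permutation test (100000 resamples, adjusted p under 0.05 by Benjamini-Hochberg over all pairs), which is 2541 (13.2%) in all. With TMM factors 83 positive (0.434%) and 42 negative (0.220%) of 19110 pairs passed, 125 (0.654%) in all. With the size factors of DESeq2 193 pairs (1.02%) passed, and with the centred log ratio, which subtracts each library's mean log2 level, 198 pairs (1.03%). Without L8 and L12, 3218 of 17955 pairs (17.9%) passed with totals and 80 (0.446%) with TMM factors, so the count fell with the TMM scale with and without these libraries. The negative pairs were 9.88% of the calls with totals and 33.6% with TMM factors. Under column totals, TMM factors, DESeq2 size factors and the centred log ratio alike, 70 positive (0.363%) and 6 negative (0.0311%) pairs passed, 76 (0.394%) in all, which involved 96 miRNAs. Of these 76 pairs, 11 were names with near-equal counts, and 66 also passed with totals without L8 and L12. The largest absolute r that did not pass was 0.929, that of miR-146a-5p and miR-155-5p, both high in L8 and L12 alone.

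**Figure D3:**
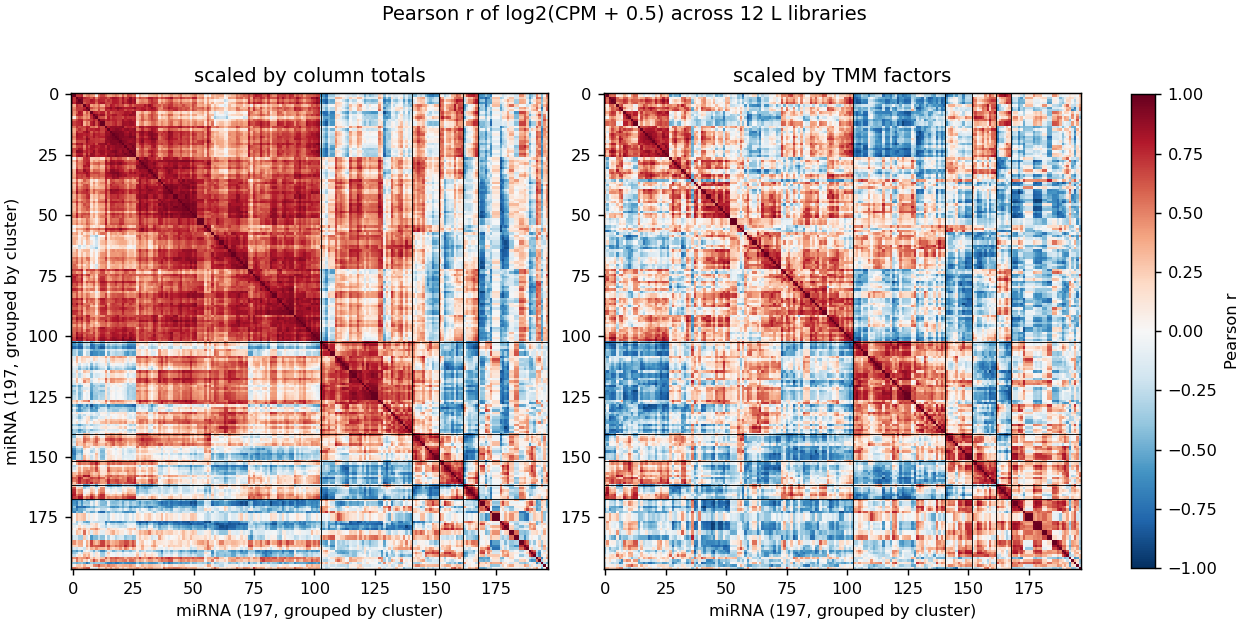
Pearson r of log2(CPM + 0.5) across the 12 L libraries for each pair of the 197 miRNAs, in the same order on both axes and in both panels, with lines at the ends of the 5 largest clusters. With column totals (left) the largest cluster is a block of positive r with a median of 0.669, which is 0.269 with TMM factors (right), whereas the second block has medians of 0.635 and 0.554. The clusters were formed from r with totals, so positive blocks on the left follow from the grouping.

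The miR-23, miR-27 and miR-24 miRNAs, which are cut from 2 clustered transcripts and are known from blood vessels and blood cells, held the pair with the highest r among the 12016 pairs with known sequences and different seeds. The starts of miR-23a, miR-27a and a copy of miR-24-3p lie within 344 bases on chromosome 2, and those of miR-23b, miR-27b-3p and the other copy within 782 bases on chromosome 10. miR-23b had 2539 CPM in L8, 1874 CPM in L12 and between 283 (L11) and 916 (L4) CPM in the others. miR-24-3p had the same pair of high libraries. The r of miR-23b and miR-24-3p was 0.988 (permutation p = 1e-05, the smallest the resampling can give, adjusted p = 0.00302) and Spearman's rho was 0.972 (p = 1e-05). L8 and L12 were also the libraries farthest from the median of miR-23b, and without them r was 0.965. The other pairs were close to it, since each of the 10 pairs of the 5 names passed with totals, beside 11.9% of all pairs, with r between 0.885 and 0.999 and a median without L8 and L12 of 0.892. With TMM factors 4 of the 10 passed, beside 0.434% of all pairs. The copies miR-23a and miR-23b, with an r of 0.999, differ in few bases, so reads can be shared between them, and likewise for miR-27a and miR-27b-3p.

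miR-182 and miR-183, which are miRNAs of sensory and secretory epithelium and lie 4566 bases apart on chromosome 18, formed the second pattern. miR-182 had 16411 CPM in L11, 12963 CPM in L9, 10897 CPM in L10 and 9649 CPM in L12, and between 4228 (L1) and 6229 (L2) CPM in the others. miR-183 had 5567 CPM in L9, 5227 CPM in L11, 3931 CPM in L10 and 3222 CPM in L12 and between 1458 (L3) and 2256 (L6) CPM in the others. The same 4 libraries were thus above the other 8 for both, with no overlap. Their r was 0.985 (permutation p = 1e-05, adjusted p = 0.00302), with a rho of 0.951 (p = 1e-05) and an r of 0.992 with TMM factors. Without L9 and L11, the farthest from the median, r was 0.985. Since L9 to L12 stood apart from the others, r was also taken within the 8 libraries L1 to L8, chosen after the values were seen, and was 0.924. miR-96-5p, the third member of the cluster, 242 bases from miR-183, did not go with them. It lay between 76.3 (L12) and 472 (L8) CPM, with an r of −0.60 to miR-182 (adjusted p = 0.144 by the permutation test) and of −0.52 to miR-183 (adjusted p = 0.225).

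Neighbours in the genome were taken as pairs whose starts lie within 50 kb. Of 64 pairs of different hairpins within 50 kb, names with near-equal counts left out, 16 had a positive call with totals (25%, beside 11.9% of all pairs) and 4 under all 4 scales (6.25%, beside 0.363%). A negative call was given to 3 with totals (beside 1.30% of all pairs) and to 0 with TMM factors. These 3 were let-7a with let-7d-5p, let-7a with miR-100, and let-7e with miR-99b. Of the 27 pairs of arms of the same hairpin, 9 passed with totals (33.3%, beside 11.9% of all pairs). They include the arms of miR-142, of which miR-142-5p reached a mean of 10 CPM through L8 and L12. With TMM factors of edgeR 0 passed (beside 0.434% of all pairs), with 7 at an unadjusted p under 0.05 (beside 10.4% of all pairs). With the size factors of DESeq2 1 passed (beside 102 of all 19306 pairs), and with the centred log ratio 1 (beside 106). miR-30a-3p and miR-30a-5p had an r of 0.738 (adjusted p = 0.0503 by the permutation test). miR-148a-3p and miR-148a-5p had an r of −0.34 (adjusted p = 0.477) and of −0.80 without L8 and L12, as the first was high in L9, L10 and L11 and the second low there, with 7.93 (L10) to 14.8 (L11) CPM, and lowest in L12, with 5.46 CPM.

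The 6 names of the X-linked cluster of miR-532, miR-660, miR-362 and miR-500 were lowest in L12, beside 69 of the 197 miRNAs. Their 15 pairs passed with totals, beside 11.9% of all pairs, with a median r of 0.886. Their summed level was 469 CPM in L12 and between 1157 (L10) and 2951 (L6) CPM in the others. miR-532-5p and miR-660 passed under the 4 scales, with an r of 0.963 by totals and 0.924 by TMM factors. With TMM factors 2 of the 15 pairs passed, beside 0.434% of all pairs.

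Of 66 pairs of names that share a seed but not near-equal counts, 2 had a negative call with totals (beside 1.30% of all pairs) and 0 with TMM factors. A positive call was given to 26 with totals (39.4%, beside 11.9%) and to 14 under all 4 scales (21.2%, beside 0.363%). Among these were members of the miR-17-92 cluster, which is known to drive cell proliferation, and of its X-linked copy. miR-106a and miR-20b, 406 bases apart on chromosome X, had an r of 0.987 with rho at 0.993 (both permutation p = 1e-05), and levels of 18.9 (L3) to 42.8 (L8) and 15.9 (L3) to 40.4 (L8) CPM. miR-17-5p of chromosome 11 had an r of 0.920 to miR-106a. The mature sequences of such names are alike beyond the seed, so reads may be shared, and this was not tested.

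The white blood cell miRNAs were high in L8 and L12. Their 10 pairs had r of 0.616 to 0.929, with a median of 0.830, and 3 passed the test with totals (beside 11.9% of all pairs). Each of the 3 holds miR-223 or miR-142-5p, whose means reached 10 CPM through L8 and L12, so the count is no support. With TMM factors of edgeR 0 passed, with 9 at an unadjusted p under 0.05 (beside 10.4% of all pairs), and with the size factors of DESeq2 0 passed, with 9 at an unadjusted p under 0.05 (beside 9.81%). In both counts most of the 9 pairs hold miR-223 or miR-142-5p, so neither count is support. By rank, miR-223 passed with miR-142-3p (rho = 0.9005, adjusted p = 0.0136, permutation) and with miR-142-5p (rho = 0.826, adjusted p = 0.0324, permutation), with miR-223 at 0 in 4 libraries. Both pairs hold miR-223, whose mean reached 10 CPM through L8 and L12, so the rank calls are likewise no support. Without L8 and L12, 3 of the pairs still had means of at least 10 CPM. Their r was 0.16 for miR-142-3p and miR-146a-5p, −0.10 for miR-146a-5p and miR-155-5p, and −0.79 for miR-142-3p and miR-155-5p. The positive r of these 3 pairs over the 12 libraries thus rested on L8 and L12.

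The 5 lowest r among pairs of known, different seeds passed with totals and not with TMM factors, and 2 of them involved let-7. The r of let-7c and miR-331-3p was −0.94 (permutation p = 3e-05, adjusted p = 0.00402) and rho was −0.97 (p = 1e-05) with totals. With TMM factors it was −0.54 (adjusted p = 0.296). The r of let-7e and miR-421-3p was −0.93 with totals and −0.04 with TMM factors. miR-16 was low in the libraries in which miR-182 was high, with 6779 (L10) to 10912 (L12) CPM in L9 to L12 and 15932 (L3) to 20749 (L7) CPM in L1 to L8, and their r was −0.93 (permutation p = 0.00041, adjusted p = 0.0121) by totals and −0.65 by TMM factors (adjusted p = 0.178). Spearman's rho of this pair was −0.68 (p = 0.0191), and r within L1 to L8 was −0.12, so the relation rested on the step between L1 to L8 and L9 to L12. Negative under the 4 scales were let-7a and let-7c each with miR-429 and with miR-22-3p, miR-148a-5p with miR-574-3p, and miR-328 with miR-7-3p. The r of let-7c and miR-429, a member of the miR-200 family, was −0.89 by totals and −0.89 by TMM factors, and without L8 and L12 it was −0.87 by totals.

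Grouping by r placed most miRNAs in a few clusters. Average linkage on 1 − r, divided at an r of 0.5, gave 15 clusters, of which 3 held a single miRNA and the 3 largest held 103, 38 and 11 miRNAs. The first held 25.3% of the reads. Its most central members were miR-423-3p, miR-34a, miR-148a-5p and miR-499-5p. miR-34a, a target of p53, had 847 (L12) to 1078 (L10) CPM in L9 to L12, 1304 CPM in L7 and 1685 (L3) to 3281 (L8) CPM in the rest. The mean log2 level of the cluster relative to each miRNA's own mean was lowest in L12, −0.73 in L10, −0.57 in L9 and −0.38 in L11 and highest in L4, at 0.57. With TMM factors L12 lay at −0.58, L10 at −0.49 and L9 and L11 at −0.09. Of the 5253 pairs within the cluster, 38 had a positive call with TMM factors, beside 0.434% of all pairs. With totals 1864 had one, beside 11.9% of all pairs. The count with totals follows from the grouping, since the clusters were formed from r with totals.

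The second cluster, of 38 miRNAs, held miR-24-3p, miR-23b, miR-23a and miR-223 at its centre, and with them the other white blood cell miRNAs, miR-21-5p and miR-221-3p. Its mean log2 level was 1.54 in L8 and 1.28 in L12 and at most 0.21 (L5) in the others, and with TMM factors it was 1.71 in L12, followed by L8. It was therefore high in the same libraries on both scales. The third cluster, of 11 miRNAs with miR-30b-5p, miR-20b, miR-106a and miR-15b at its centre, was highest in L8 (0.96) and lowest in L7 (−0.61) with totals, and highest in L11 (0.69) and lowest in L2 (−0.63) with TMM factors. miR-30b-5p had 1789 CPM in L8 and 342 CPM in L7.

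The smaller clusters set L8 and L12 apart from each other. The fourth, of 10 miRNAs that include miR-148a-3p, miR-542-3p and miR-122-5p, had a mean log2 level of −1.91 in L12, 0.01 in L8 and 0.76 (L10) to 0.83 (L9) in L9 to L11, and with TMM factors −1.50 in L12 and −0.43 in L8. The fifth, of 6 miRNAs that include miR-125a, miR-125b and miR-184, was at −1.93 in L8 and −0.53 in L12, and at −2.38 and −0.10 with TMM factors. miR-125b had 6693 CPM in L8 and 17520 (L10) to 46545 (L2) CPM elsewhere. miR-125a, of the same seed family, was also lowest in L8, at 7915 CPM, but highest in L12, at 51523 CPM. miR-184 had 50.2 CPM in L8, 129 CPM in L12 and 422 (L11) to 2217 (L1) CPM elsewhere. These 3 were chosen after their values were seen.

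**Figure D4:**
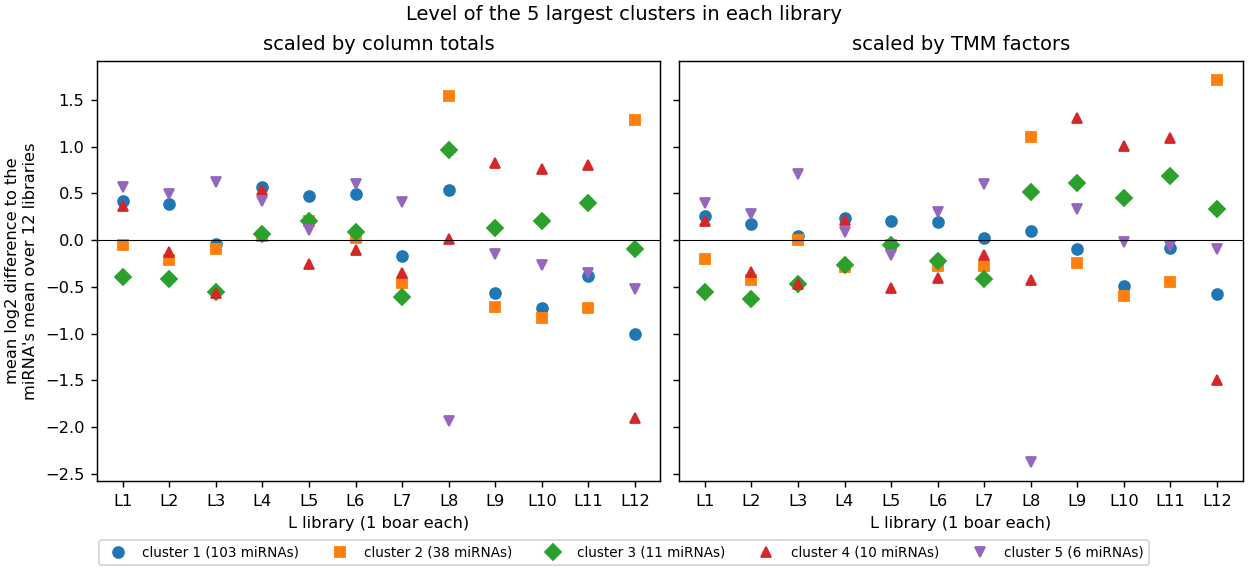
Mean log2 difference of the miRNAs of each of the 5 largest clusters to their own mean over the 12 L libraries (y axis) in each library (x axis), with libraries scaled by column totals (left) and by TMM factors (right). Cluster 2 is high in L8 and L12 in both panels, cluster 4 is lowest in L12 at −1.91 by totals, cluster 5 is lowest in L8 at −1.93, and the low levels of cluster 1 in L9 and L11 move to −0.09 by TMM factors.

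The first 2 principal components of the centred log2 levels held 36.2% and 32.1% of the variance. Of 8 relations of these components to library properties, 3 passed the permutation test of r after adjustment over the 8. The number of miRNAs detected and the percent of reads in the 10 most abundant come from the same counts as the components. Their relations are thus partly built in, and their p-values do not test independent properties. Component 1, on which L8 was highest and L10 lowest, went up with the number of miRNAs detected (r = 0.716, p = 0.00992, adjusted p = 0.0326, permutation, n = 12, and rho = 0.626, p = 0.0341, adjusted p = 0.0682). Without L8 and L10 this r was 0.195, so the relation rested on them. It went down with the percent of reads in the 10 most abundant miRNAs (r = −0.70, permutation p = 0.0122, adjusted p = 0.0326, and rho = −0.71, p = 0.0122, adjusted p = 0.0345), and without L8 and L10 r was −0.73, but it was −0.15 without L11, −0.053 without L8 and L12 and −0.36 with TMM factors. Component 2, on which L12 was highest, went up with the number of circRNAs detected in the long RNA library of the same number, thinned to 1 depth (r = 0.745, permutation p = 0.00631, adjusted p = 0.0326, and rho = 0.545, p = 0.0708, adjusted p = 0.113). Without L12 and L4, r was 0.418, so it rested on these libraries. By rho, but not by r, component 2 also passed with the number of miRNAs detected (rho = −0.75, permutation p = 0.00729, adjusted p = 0.0345) and with the percent in the 10 most abundant (rho = 0.706, permutation p = 0.0129, adjusted p = 0.0345). The relations to the library total did not pass (r = 0.069 and 0.372, adjusted p = 0.830 and 0.272, permutation).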

How the data were processed

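Reads of 12 small RNA libraries of the L group were analysed. The authors deposited raw counts of mature miRNAs, whole numbers without normalization. According to the methods and labels, libraries were made with the QIAseq miRNA kit, reads were trimmed with cutadapt, other small RNAs and repeats were removed with Bowtie, and miRNAs of the pig genome (susScr11) were identified with miRDeep2 and miRBase. Whether molecular identifiers were collapsed is not given in the sources used here, so counting error is a lower limit. The volume of seminal plasma was 60 mL by the labels, and the methods give another one. The labels do not say whether libraries were prepared in batches. 0 columns of the table were without a library.

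CPM was taken from column totals and log2 levels with a prior of 0.5 CPM. miRNAs with a mean of at least 10 CPM were described by the CV and, over the 19306 pairs, by Pearson r with 100000 permutations and Benjamini-Hochberg adjustment. The counting CV is that of Poisson counts at the mean level. Clusters are from average linkage. Each boar gave 1 library, so spread over libraries includes both animal and preparation. Depth ran from 4650378 to 9842872 reads. The tests were checked on simulated data.

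Set to be named were the 10 miRNAs with the highest mean, and the 12 with the highest and the 12 with the lowest CV. To these came the 10 pairs with the highest and 5 with the lowest r without a shared seed. The 4 central members of each of the 3 largest clusters, and the most abundant members of each family or marker list, were also set. Some of these pairs and list members are not printed. Other names, such as pairs called under all 4 scales, were added after their values were seen. Intervals and the 3-read floor cover counting error only. The question and the lists were chosen with earlier results of these data known. Mature sequences were matched by name to the RefSeq annotation of Sscrofa11.1, for 269 of 345 names.

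Python 3.11.15, NumPy 2.4.6, SciPy 1.17.1, pandas 2.3.3, pysam 0.24.0, matplotlib 3.10.9, R 4.3.3, edgeR 4.0.16 and DESeq2 1.42.0 were used, the last 2 for scale factors and the biological CV. The alternatives were these factors, a centred log ratio, Spearman's rho, a prior of 5 CPM, other minimum levels and leaving out each library. Leaving out L8 and L12 together, and keeping 1 name of each set with near-equal counts, were added after the data were seen.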

Additional observations from a re-analysis of the deposited data

How the results depend on the processing

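No paired analysis was possible because the description stays within 1 group. Of the 12 highest CVs, 10 were shared with those by the SD of log2 levels, 10 with the biological CV of edgeR and 10 with TMM factors. The 10 miRNAs with a CV of 1 or more became 2 at a mean of 100 CPM or more, 32 at 1 CPM or more and 94 with no filter, which add or remove miRNAs of low level. They were 6 to 12 when 1 library was left out (6 without L8) and 1 without L8 and L12, where miR-223 falls below 10 CPM. The 38 miRNAs with a CV of 0.3 or less became 69 with TMM factors, 68 with DESeq2 size factors, 66 without L8 and L12, and 7 by the biological CV of edgeR. The 2541 co-varying pairs became 125 with TMM factors, 193 with DESeq2 size factors, 198 with the centred log ratio, 80 with TMM factors without L8 and L12, 1488 at 100 CPM or more and 1463 with no filter, and 1454 (without L10) to 2967 (without L12) when 1 library was left out, with 1535 without L9. The cause of these shifts was not tested. Spearman's rho gave 1750 pairs, a minimum of 1 CPM 2142, a prior of 5 CPM 2516 and 1 name of each set with near-equal counts 2416, within 1.5 times the count.

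The relations of components to library properties depended on the setting. With TMM factors r was 0.437 for component 1 with miRNAs detected, −0.36 for component 1 and 0.887 for component 2 with the percent in the 10 most abundant, and 0.461 for component 2 with circRNAs. At 100 CPM or more the first was 0.659, the second −0.56 and the last 0.666, and none of these 3 passed (adjusted over 8). Without L8 and L12 component 1 had r of −0.40 with miRNAs detected and −0.053 with the percent in the 10 most abundant. Component 2 then had r of 0.979 with that percent and 0.518 with circRNAs. The components were fitted anew in each setting, and their sign and order can change between fits. The sign of r, here and in the ranges that follow, is therefore not comparable between settings. When 1 library was left out, component 1 ranged from 0.336 to 0.813 with miRNAs detected, −0.87 to −0.15 with the percent and 0.0095 to 0.918 with circRNAs, and component 2 from −0.82 to 0.510, 0.460 to 0.813 and 0.169 to 0.803. The cause was not tested. At 12 libraries and a count of 0 worth up to 0.645 CPM, depth limits only miRNAs near the floor.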
